A study of Mus musculus with 17 samples.

Results

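Macrophages in which Jund was knocked out (JunDKO) were compared directly with macrophages in which its paralog Jun was knocked out (JunKO), to ask which transcripts differed between the loss of one Jun protein and the loss of the other. The comparison used 4 of the 17 samples of the series, 2 JunDKO and 2 JunKO libraries. It took in 10414 of 24453 gene models, those with an exonic length of at least 200 bases and a mean of at least 1 RPKM (reads scaled to exon length and library depth) over the 8 libraries of this cell line. The cells labelled as scramble control (Scramble, zsGreen in the titles, 2 libraries) were left out of the contrast and are shown for reference, and 2 Atf3KO libraries entered the fit for the spread alone. All of these were vehicle-treated immortalised bone marrow-derived macrophages (iBMDMs) at passage 3-8, labelled male and of the C57Bl/6EiJ strain, transformed with BRAF(V600E) and Myc. Every group was thus a transformed line that carried both oncogenes. Per the methods of the study, a Cas9-EGFP derivative received a lentivirus with 2 guides per target, and infected cells were sorted on the viral tagBFP2, so that a knockout was a sorted culture and no clone was named. Replicates were not stated to be separate cultures, and p-values measure only the spread between these libraries.

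Jun and JunD belong to the AP-1 family of basic leucine zipper transcription factors, which bind DNA as dimers with each other or with Fos, ATF and Jdp2 proteins. The classical site is the TPA response element (TRE), TGACTCA or TGAGTCA on the other strand, and dimers with ATF proteins also bind the cAMP response element (CRE), TGACGTCA. In fibroblasts Jun is known to promote proliferation and JunD to restrain it, and in macrophages AP-1 acts at inflammatory, matrix and antioxidant genes.

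Library depth, recovered from the steps of the RPKM values, was 1553296 and 18444437 reads in JunDKO, 1704872 and 1713948 in JunKO and 1929988 and 1711541 in Scramble. JunDKO replicate 2 was far deeper, yet it held reads in 12533 models against 11925 in replicate 1, and 3.2% of these models rested on 1 to 3 reads against 13.4%. Whether it was sequenced or processed like the others is not given in the sources used here, and it supplies most of any read number pooled over JunDKO. The 2 libraries of each of these 3 groups spread beyond counting error (chi-square over its degrees of freedom, 3.58 to 3.84), and the 2 Atf3KO libraries, which enter the fit, spread by 28.34. All 16 macrophage markers passed the filter in this line, among them Spi1, which encodes PU.1, at 127 to 188 RPKM in the 6 libraries, and the CSF-1 receptor gene Csf1r at 328 to 703 RPKM. Of the mast cell, lymphoid, fibroblast and erythroid markers 0 passed the filter, and each of these lists summed to at most 1.34 RPKM.

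The targeted genes were examined first. Jun (GRCm38, the mm10 build, chromosome 4, minus strand, 95049036 to 95052222) measured 17.6 and 18.5 RPKM in Scramble, with 26.2 and 20.5 in JunKO against 13.5 and 13.5 in JunDKO. Among these 3 groups its RNA was thus highest in the libraries labelled JunKO and lowest in JunDKO, without overlap of those groups, and it measured 17.9 and 46.2 RPKM in Atf3KO. Jund lies on chromosome 8, from 70697739 to 70700616 on the plus strand. It measured 9.19 and 8.33 RPKM in Scramble, with 11.6 and 9.74 in JunKO against 6.94 and 6.07 in JunDKO. The log2 difference between JunDKO and JunKO was -0.74 ± 0.36 for Jun (error as SE over 2 libraries a group, limma-trend adjusted p = 0.228) and -0.64 ± 0.46 for Jund (limma-trend adjusted p = 0.412). An edit need not lower the RNA of its locus, so these values check neither knockout and the groups are named by their labels. The study reported that western blotting bore out the knockouts. It also reported a substantial loss of Jun binding by ChIP-seq in its Jun knockout iBMDMs. Neither was analysed here.

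The other AP-1 genes did not pass the test between the knockouts. Of 15 monomers 10 were tested and 0 were called by limma-trend or by limma-voom on recovered reads, with 2 at an unadjusted p under 0.05 and a median log2 difference of 0.12. Over all 10414 models 2684 had an unadjusted p under 0.05. Fos, which encodes a common dimer partner of Jun proteins, measured 5.46 and 5.60 RPKM in Scramble, with 6.74 and 6.71 in JunKO against 17.0 and 18.3 in JunDKO. Both JunDKO libraries thus lay above all 4 others, and the log2 difference of 1.27 ± 0.38 missed the threshold (limma-trend adjusted p = 0.0661). It was called in 7 of 27 alternatives, of which 5 left out one or both Atf3KO libraries, where Fos measured 2.40 and 7.81 RPKM. Against Scramble JunDKO differed by 1.51 (limma-trend adjusted p = 0.0270). Fosl2, which encodes Fra-2, differed by 0.71 ± 0.28 on the log2 scale (limma-trend adjusted p = 0.151). Junb, the remaining Jun gene, differed by -0.24 ± 0.38, at 42.1 and 42.9 RPKM in JunKO and 34.7 and 36.9 in JunDKO. Atf3 (0.15) and Atf4 (0.08) had small positive differences that turned negative when library medians were set equal.

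**Figure D1:**
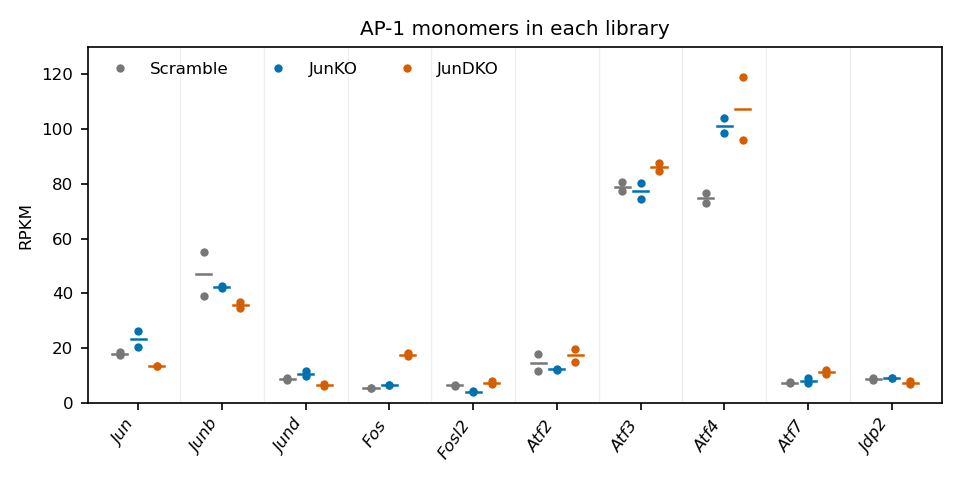
RPKM of the 10 AP-1 monomers tested, on a linear axis from 0, in each of 2 Scramble, 2 JunKO and 2 JunDKO libraries (points) with the group mean (bars). Jun and Jund are lower in JunDKO than in JunKO, Fos is higher at 17.0 and 18.3 RPKM, and none of the 10 was called.

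Across the transcriptome, 389 of the 10414 models were called between JunDKO and JunKO (3.74%), with a limma-trend adjusted p under 0.05, a change of at least 2-fold and 16 RPKM or more as the mean of one group or the other. Of these, 183 (1.76%) were higher and 206 (1.98%) lower in JunDKO. The median difference over all models was 0.23 on the log2 scale. With library medians set equal that median became -0.03 and the split 110 higher (1.06%) and 310 lower (2.98%), so the size of the excess of lower calls depends on the scaling. Both JunDKO libraries exceeded both JunKO libraries for 4657 models (44.7%) and lay below both for 1669 (16.0%). Without JunDKO replicate 1 the calls numbered 221 and without replicate 2 they numbered 220. Of the 389 genes, 0 changed direction in any of 28 alternatives and 178 (58 higher and 120 lower) were called in the 27 that kept the 2-fold limit.

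**Figure D2:**
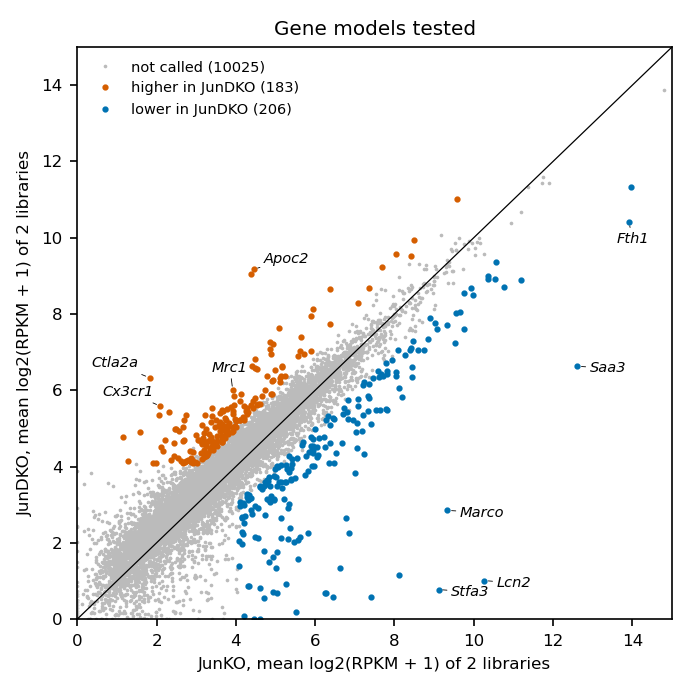
Mean log2(RPKM + 1) of the 2 JunDKO libraries (vertical) against the 2 JunKO libraries (horizontal) for the 10414 models tested, with the line of equal values. The 183 genes called higher in JunDKO lie above the line and the 206 called lower lie below it, with Lcn2 (-9.25) and Stfa3 (-8.34) farthest below.

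The position of Scramble was then used to say which knockout stood away from the control, as a description with no test, since both distances share the Scramble libraries. Among the 389 genes, 239 (61.4%) had JunKO within 1.5-fold of Scramble and JunDKO at least 2-fold from it, 113 of them higher and 126 lower in JunDKO, or 61 and 195 of 256 with equal library medians. The reverse pattern, with JunDKO near Scramble and JunKO away from it, was held by 3 genes. In 31 genes the knockouts lay on opposite sides of Scramble, 27 of these with JunDKO lower and 4 with JunDKO higher. Without JunKO replicate 1 that split was 26 and 17, without Scramble replicate 2 it was 22 and 7, and without Scramble replicate 1 or JunDKO replicate 1 the class held 2 with JunDKO higher. In 64 both lay on the same side at unequal distance, and 52 fell between these classes. The genes with JunDKO apart made up 57.9% to 63.9% of the calls in the 27 alternatives that held Scramble, with a count of 138 without JunDKO replicate 1 and 140 without replicate 2, and the reverse class held 0 to 14 genes.

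**Figure D3:**
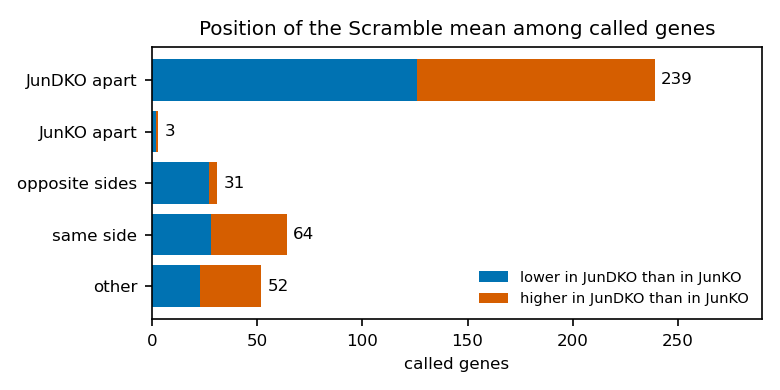
Number of the 389 called genes in each class of the position of the Scramble mean, split into genes lower and higher in JunDKO than in JunKO. JunDKO apart holds 239 genes and JunKO apart holds 3.

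The genes with JunDKO apart and lower included secreted host defence proteins at high levels in control cells. Lcn2, which encodes the siderophore-binding lipocalin 2 (chromosome 2, minus strand, 32384637 to 32387739), measured 1305 and 929 RPKM in Scramble, with 1423 and 1059 in JunKO against 3.05 and 0 in JunDKO. Its RNA was thus nearly absent in both JunDKO libraries, with 4 reads against 3584 in JunKO, and near the control in JunKO. The log2 difference was -9.25 ± 0.51 (limma-trend adjusted p = 7.44e-06). In RNA of whole cultures, fewer expressing cells and less RNA per cell cannot be told apart. Slpi, the secretory leukocyte protease inhibitor, measured 138 and 130.3 RPKM in Scramble, with 168 and 169.7 in JunKO against 0 and 1.25 in JunDKO (log2 difference -6.82 ± 0.34, limma-trend adjusted p = 3.32e-06). C3, the central complement component, differed by -2.56 ± 0.18 (limma-trend adjusted p = 3.07e-05).

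Marco, Fpr1 and Fpr2, which encode receptors for bacteria or their peptides, were also in this class. The scavenger receptor gene Marco measured 557 and 503 RPKM in Scramble, with 641 and 649.6 in JunKO against 5.57 and 6.92 in JunDKO. The groups were far apart, with a log2 difference of -6.49 ± 0.18 (limma-trend adjusted p = 1.61e-07). Marco was the 1 scavenger receptor called of 9 tested, whose median difference was 0.37, and Msr1 differed by -0.51. The formyl peptide receptor genes Fpr1 and Fpr2, which guide phagocytes to bacterial peptides, differed by -5.58 ± 0.25 and -4.34 ± 0.51 (limma-trend adjusted p = 2.71e-06 and 7.01e-04). Fpr1 measured 73.8 and 77.0 RPKM in JunKO and 0.976 and 0.288 in JunDKO. The cysteine protease gene Ctsk differed by -5.88 ± 0.33 and the activating receptor gene Cd300e by -4.34 ± 0.21, with Scramble and JunKO alike in level for both by the 1.5-fold limit.

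The granule gene S100a8 had 0 reads in JunDKO and 31 in JunKO, which makes it at least 60.4-fold lower by a limit of 3 reads over the group, for counting error only, and at least 4.69-fold lower without the deep JunDKO replicate 2. Lcn2, S100a8 and Mmp9 were the 3 called of 5 neutrophil and granule genes tested. The defining neutrophil genes Ngp, Camp, Elane, Mpo, Ly6g and S100a9 were listed at 0 RPKM in all 6 libraries, and 11 of the 18 genes of the list were at 0 in every JunKO and JunDKO library. A listed 0 need not mean that a gene was silent, since the ribosomal protein gene Rpl38, which all cells use, was also listed at 0 in the 4 JunKO and JunDKO libraries. The list summed to 1117 to 1487 RPKM in JunKO, nearly all of it Lcn2, and to 23.8 to 29.2 in JunDKO. The other 2 members tested, Csf3r and Mmp8, were not called and had differences of 1.06 and 0.73, with both JunDKO libraries above both JunKO libraries.

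Genes with JunDKO apart and higher encoded, among others, an iron carrier, an adhesion molecule and an ectoenzyme. Trf, which encodes the iron carrier transferrin, measured 29.3 and 28.5 RPKM in Scramble, with 30.4 and 26.2 in JunKO against 147 and 156 in JunDKO (log2 difference 2.38 ± 0.17, limma-trend adjusted p = 3.79e-05). The adhesion gene Cadm1 measured 19.7 and 23.1 RPKM in JunKO and 110.5 and 114 in JunDKO (2.34 ± 0.20, limma-trend adjusted p = 9.87e-05). For both genes Scramble and JunKO overlapped and JunDKO lay above them. Trf was also above Scramble in the Atf3KO libraries, at 69.0 and 73.1 RPKM, while Cadm1 measured 22.2 and 17.1 there. Entpd1, the ATP-hydrolysing ectoenzyme CD39, rose by 3.29 ± 0.27 and the oxysterol receptor gene Gpr183 by 3.13 ± 0.22 on the log2 scale. Cd83 measured 0.552 and 2.19 RPKM in JunKO and 27.2 and 25.9 in JunDKO (3.63 ± 0.37, limma-trend adjusted p = 2.80e-04). Olfml3 and the chemokine gene Cxcl14 differed by 3.32 and 2.52 on the log2 scale.

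**Figure D4:**
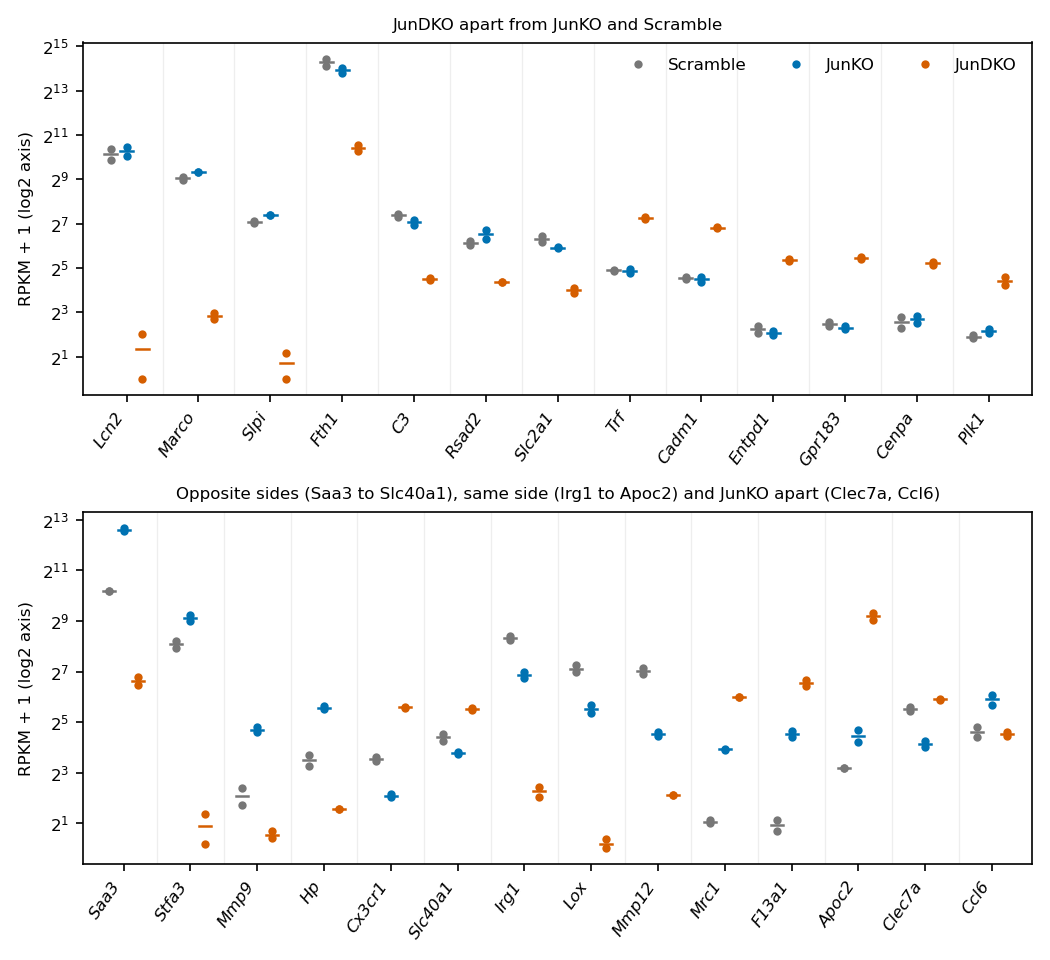
RPKM + 1 on a log2 axis for 27 named genes in each Scramble, JunKO and JunDKO library (points) with group means of RPKM (bars). In the upper panel JunDKO stands apart from the other 2 groups. In the lower panel Saa3 to Slc40a1 have the knockouts on opposite sides of Scramble, Irg1 to Apoc2 have both on one side, and Clec7a and Ccl6 have JunKO apart.

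In the 31 genes on opposite sides of Scramble, 27 had JunKO above the control and JunDKO below it, by group means. Against Scramble, 27 of the 31 passed the 0.05 limit of the limma-trend adjusted p for JunDKO and 6 for JunKO. Saa3, the acute-phase serum amyloid A made by macrophages (chromosome 7, minus strand, 46711998 to 46715676), measured 1175 and 1172 RPKM in Scramble, with 5958 and 6570 in JunKO against 88.3 and 109 in JunDKO. JunKO libraries were thus above the control and JunDKO libraries below it, with no overlap. The log2 difference between knockouts was -5.98 ± 0.19 (limma-trend adjusted p = 2.46e-07), made of 2.41 ± 0.19 for JunKO against Scramble and -3.57 ± 0.19 for JunDKO against Scramble. Hp, which encodes haptoglobin, measured 12.0 and 8.73 RPKM in Scramble, with 48.7 and 44.5 in JunKO against 1.93 and 1.99 in JunDKO, and against Scramble the limma-trend adjusted p was 0.00570 for JunKO and 4.03e-04 for JunDKO.

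Mmp9, a gelatinase of the matrix, measured 2.30 and 4.25 RPKM in Scramble, with 26.7 and 23.5 in JunKO against 0.611 and 0.326 in JunDKO (log2 difference between knockouts -4.16 ± 0.31, limma-trend adjusted p = 4.09e-05). Spp1, which encodes osteopontin, measured 17020 and 15025 RPKM in JunKO and 2767 and 2394 in JunDKO around 10342 and 8932 in Scramble. The chemokine gene Ccl7 differed by -3.49 ± 0.24 between knockouts. JunKO did not pass against Scramble for Spp1 or Ccl7 (limma-trend adjusted p = 0.408 and 0.352).

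Members of the stefin A cluster on chromosome 16, small inhibitors of cysteine proteases, had the same order of means. Stfa3 measured 243 and 294 RPKM in Scramble, with 506 and 604 in JunKO against 1.58 and 0.133 in JunDKO, with 772 reads against 2, so that the read rates stood 2258 to 1 with a 95% exact interval of 623 to 18677, for counting error only. Without JunDKO replicate 2 the ratio was 351 (62.8 to 13872) and without replicate 1 it was 4165 (745 to 164716), and JunKO did not pass against Scramble (limma-trend adjusted p = 0.510). The neighbouring model 2010005H15Rik measured 186 and 408 RPKM in JunKO and 1.24 and 1.25 in JunDKO. In Atf3KO that model was listed at 0 RPKM in both libraries, and Stfa3 measured 76.6 and 35.6. Of 5 members tested 4 were called lower in JunDKO and 0 higher, and Stfa2 was listed at 0 RPKM in JunDKO and Scramble and at 2.81 and 5.58 in JunKO. The members are close copies that can share reads, so their single values are uncertain.

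Among genes chosen after their values were seen, Creld2, Herpud1, Sdf2l1 and Pdia4 also lay above Scramble in JunKO and below it in JunDKO. Creld2 measured 105 and 90.8 RPKM in Scramble, with 160.1 and 139 in JunKO against 22.4 and 16.0 in JunDKO. The log2 differences between knockouts were -2.91, -2.38, -2.30 and -1.84 in that order. Hspa5, which encodes the chaperone BiP and was chosen in the same way, measured 2096 and 2607 RPKM in JunKO and 425 and 522 in JunDKO (-2.31 ± 0.23, limma-trend adjusted p = 2.28e-04).

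In the other direction, 4 genes were above Scramble in JunDKO and below it in JunKO. Cx3cr1, the fractalkine receptor gene of resident macrophages (chromosome 9, minus strand, 120048683 to 120068296), measured 11.5 and 10.1 RPKM in Scramble, with 3.44 and 3.11 in JunKO against 45.9 and 48.0 in JunDKO. Each knockout differed from the control in its own direction (limma-trend adjusted p = 0.0282 for JunKO and 3.05e-04 for JunDKO), and the difference between knockouts was 3.49 ± 0.22 (limma-trend adjusted p = 1.71e-05). Slc40a1, which encodes the iron exporter ferroportin, measured 13.1 and 12.3 RPKM in JunKO and 43.4 and 46.3 in JunDKO. Thbs1, which encodes thrombospondin 1, rose from 1.92 and 1.00 to 18.4 and 15.4 RPKM, a call lost without JunDKO replicate 1. For Slc40a1 and Thbs1 JunKO did not pass against Scramble (limma-trend adjusted p = 0.501 and 0.588). Vkorc1, of the vitamin K cycle, differed by 1.48 ± 0.26 and lost its call in 4 of 27 alternatives.

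In 64 genes the knockouts lay on the same side of Scramble, with JunDKO farther away in each gene given here. Irg1, the itaconate-producing enzyme gene, measured 342 and 305 RPKM in Scramble, with 124 and 106 in JunKO against 4.49 and 3.13 in JunDKO (log2 difference between knockouts -4.61 ± 0.21, limma-trend adjusted p = 2.71e-06). The macrophage elastase gene Mmp12 measured 119 and 142 RPKM in Scramble, with 21.2 and 23.7 in JunKO against 3.40 and 3.33 in JunDKO (-2.42 ± 0.23). The levels thus fell in steps from Scramble through JunKO to JunDKO. Lox, the collagen crosslinking lysyl oxidase gene, measured 39.9 and 50.9 RPKM in JunKO and 0.288 and 0.0120 in JunDKO. With 694 reads against 3, the pooled rates had a ratio of 1353 (461 to 6577, for counting error only), which was 158 (43.5 to 1304) without JunDKO replicate 2 and 3744 (669.8 to 148095) without replicate 1. Procr, the protein C receptor gene, differed by -3.47 ± 0.22.

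Other genes were higher in both knockouts than in Scramble. Apoc2, an apolipoprotein that activates lipoprotein lipase (chromosome 7, minus strand, 19671579 to 19673920), measured 8.21 and 8.23 RPKM in Scramble, with 24.8 and 17.5 in JunKO against 638 and 519 in JunDKO (4.72 ± 0.22, limma-trend adjusted p = 3.32e-06). For Apoc2 JunKO did not pass against Scramble (limma-trend adjusted p = 0.0649). A readthrough model with Apoc4 shares its reads. The mannose receptor gene Mrc1 measured 1.18 and 0.995 RPKM in Scramble, with 14.0 and 14.3 in JunKO against 62.7 and 63.2 in JunDKO, and the coagulation factor gene F13a1 measured 1.22 and 0.609, then 24.0 and 20.1, then 84.4 and 101. In all 3 contrasts both genes passed the 0.05 limit of the limma-trend adjusted p, with JunDKO over JunKO by 2.08 ± 0.22 and 2.02 ± 0.24. Pf4, Fcrls and Ifi27l2a followed the same order, at 2.18, 2.55 and 2.05 over JunKO. The protease inhibitor gene Ctla2a measured 2.73 and 0 RPKM in Scramble, with 1.32 and 4.39 in JunKO against 74.2 and 84.8 in JunDKO (4.50 ± 0.70, limma-trend adjusted p = 0.00331). For Ctla2a Scramble and JunKO overlapped (limma-trend adjusted p = 0.864). Its close copy Ctla2b may share reads.

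The genes with JunKO apart were Clec7a, Ccl6 and Raet1d. Clec7a, which encodes the beta-glucan receptor Dectin-1, measured 42.9 and 47.0 RPKM in Scramble, with 15.1 and 18.3 in JunKO against 60.0 and 57.4 in JunDKO. Among these 3 groups Clec7a was lowest in JunKO. The difference of 1.76 ± 0.27 between knockouts (limma-trend adjusted p = 0.00323) was called in all 27 alternatives. Against Scramble JunKO differed by -1.38 (limma-trend adjusted p = 0.0933). The chemokine gene Ccl6 measured 26.8 and 20.4 RPKM in Scramble, with 50.9 and 67.3 in JunKO against 20.7 and 23.6 in JunDKO (-1.37 ± 0.22, limma-trend adjusted p = 0.00385), a call lost without JunDKO replicate 1. Raet1d, a ligand of the killer cell receptor NKG2D, differed by -1.49 ± 0.40 and lost its call in 11 of 27 alternatives. In Atf3KO Clec7a measured 17.2 and 9.05 RPKM and Ccl6 69.3 and 62.0, both on the JunKO side of Scramble, and Raet1d measured 11.4 and 4.38. All 3 were chosen by the direct contrast, and the rule on the Scramble mean has no test of its own.

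The gene lists were described by their counts beside the 3.74% of all models called. Of 36 genes of mitosis and G2/M, 18 were called higher in JunDKO and 0 lower, against 1.76% of all models called higher, and the median difference was 1.05 against 0.23. Both JunDKO libraries lay above both JunKO libraries for 31 of the 36, against 44.7% of all models. The mitotic kinase gene Plk1 measured 2.59 and 2.92 RPKM in Scramble, with 3.73 and 3.18 in JunKO against 23.1 and 18.0 in JunDKO (2.27 ± 0.29, limma-trend adjusted p = 0.00130). Ccnb2, a B-type cyclin, Cenpa, the centromeric histone, and Cdc20, an activator of the anaphase-promoting complex, differed by 2.62, 2.52 and 1.75. Of 36 genes of DNA replication and G1/S 0 were called by limma-trend or limma-voom and 5 had an unadjusted p under 0.05, with a median of -0.01. That limit was met by 2684 of all 10414 models. Summed over the list, mitotic RNA was 461 and 525 RPKM in JunKO and 1061 and 1044 in JunDKO, and replication RNA 1148 and 1118 against 1069 and 1068. The mitotic sum was 331 and 324 RPKM in Scramble and 819 and 689.6 in Atf3KO. With equal library medians 11 of the mitotic genes were called higher, 6 without JunDKO replicate 1 and 6 without replicate 2.

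Cdkn1a, the cell cycle inhibitor p21, was the 1 gene called of 12 D-type cyclins, CDK inhibitors and related regulators, at 238 and 179.8 RPKM in JunKO and 87.4 and 77.0 in JunDKO (-1.32 ± 0.20, limma-trend adjusted p = 0.00284). With equal library medians, with the GC trend removed or without the RPKM minimum 3 of the 12 were called lower. Among members under the 16 RPKM limit, and so not called, Cdkn2a measured 6.94 and 7.59 RPKM in JunKO and was listed at 0 in both JunDKO libraries, and the cyclin gene Ccnd2 measured 9.26 and 8.20 RPKM in JunKO and 0.335 and 0.489 in JunDKO. Both were chosen after their values were seen.

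Of 19 genes of glycolysis 11 were called lower in JunDKO and 0 higher, with a median of -1.32. The lactate exporter gene Slc16a3 measured 46.8 and 35.1 RPKM in JunKO and 3.52 and 5.08 in JunDKO (-2.99 ± 0.27, limma-trend adjusted p = 1.29e-04). The glucose transporter gene Slc2a1 measured 60.0 and 58.6 against 13.8 and 16.4 (-1.91 ± 0.21, limma-trend adjusted p = 4.25e-04). For both, Scramble lay within 1.5-fold of JunKO, at 43.3 and 35.1 RPKM and at 85.8 and 72.3. Pgk1 and Pfkl, enzymes of the pathway, differed by -1.80 and -1.54, and the call of Pgk1 was lost without JunDKO replicate 1 and without JunKO replicate 2, that of Pfkl without JunDKO replicate 2. The count of 11 was 8 without JunDKO replicate 1, 6 without replicate 2 and 14 with equal library medians.

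Antioxidant targets of the transcription factor NRF2 were called lower in JunDKO for 8 of 22 genes and called higher for 0, with a median of -0.89 and 4 positive differences. The cystine transporter gene Slc7a11 measured 63.9 and 85.4 RPKM in Scramble, with 20.4 and 26.5 in JunKO against 0.629 and 0.877 in JunDKO (-3.79 ± 0.26, limma-trend adjusted p = 2.36e-05). The glutathione reductase gene Gsr, the peroxiredoxin gene Prdx1 and the glutamate-cysteine ligase gene Gclm differed by -3.29, -2.04 and -1.88. All 4 lay on the same side of Scramble in both knockouts by group means, although of these only Slc7a11 passed for JunKO against Scramble (limma-trend adjusted p = 0.0355, and 0.0674, 0.181 and 0.0548 for Gsr, Prdx1 and Gclm). The list summed to 8717 and 8009 RPKM in Scramble, with 4956 and 4511 in JunKO against 2238 and 2023 in JunDKO. Nfe2l2, which encodes NRF2, measured 124 and 109 RPKM in JunKO and 142 and 141 in JunDKO.

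Of 15 genes of iron handling, 4 were called lower and 2 higher. The ferritin heavy chain gene Fth1 measured 22402 and 17582 RPKM in Scramble, with 16724 and 14182 in JunKO against 1484 and 1256 in JunDKO (-3.49 ± 0.25, limma-trend adjusted p = 3.67e-05). Fth1 was thus far lower in JunDKO than in the other groups, while the light chain gene Ftl1 measured 3847 and 2980 RPKM in JunKO and 3113 and 2448 in JunDKO (-0.29). Ferritin genes have processed pseudogenes that can take up reads, so their levels are uncertain. The exporter gene Slc40a1 and the carrier gene Trf, above, were the 2 called higher. The others called lower were Lcn2 and, chosen after their values were seen, the haem oxygenase gene Hmox1 (-1.63) and the transferrin receptor gene Tfrc (-1.36), whose call was lost when any one of the JunKO and JunDKO libraries was left out.

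Of 30 interferon-stimulated genes 7 were called lower in JunDKO and 0 higher, with a median of -0.85, and 27 had both JunDKO libraries below both JunKO libraries, against 16.0% of all models. Rsad2, which encodes the antiviral enzyme viperin, measured 64.5 and 73.3 RPKM in Scramble, with 79.5 and 104 in JunKO against 19.4 and 19.7 in JunDKO (-2.16 ± 0.23, limma-trend adjusted p = 4.24e-04). Ifit1 and Ifit3, which bind viral RNA or its sensors, and Usp18, a brake on interferon signalling, differed by -1.97, -1.59 and -1.75. JunKO lay within 1.5-fold of Scramble for all 4. In Atf3KO Rsad2 measured 23.5 and 15.6 RPKM, Ifit1 7.08 and 6.50, Ifit3 43.7 and 30.4 and Usp18 77.6 and 60.5. All but Usp18 were thus below Scramble there too. With equal library medians 13 of the list were called lower. Ifi27l2a, outside the list and known to respond to interferon, was higher in JunDKO.

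Chemokine and complement genes went both ways. Of 13 chemokine genes 5 were called lower and 2 higher. Ccl12 had 32 reads in JunKO and 1 in JunDKO, so that the pooled rates had a ratio of 187 (31.3 to 7621, for counting error only). Without JunDKO replicate 2 JunDKO had 0 reads, which makes it at least 4.85-fold lower, and its call was lost without JunKO replicate 1. Ccl7 differed by -3.49, and Cxcl10 and Ccl2, attractants of T cells and monocytes chosen after their values were seen, by -1.48 and -1.44 on the log2 scale, while Pf4 and Cxcl14 differed by 2.18 and 2.52. In the acute-phase and complement list, Saa3, Hp and C3 were the 3 called lower of 10. All 3 genes of C1q, chosen after their values were seen, were called higher. C1qb measured 371 and 238 RPKM in Scramble, with 892 and 654 in JunKO against 2313 and 1870 in JunDKO.

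Other macrophage genes moved in both directions, with 3 of the 16 markers called higher and 1 lower. Mertk, a receptor for dying cells, rose by 1.46 ± 0.21 (limma-trend adjusted p = 0.00213), Mrc1 and Cx3cr1 are given above, and the integrin gene Itgam fell by 1.27 on the log2 scale (limma-trend adjusted p = 0.00168). Of 10 proteases and inhibitors of the matrix, Mmp9, Mmp12 and Mmp19 were called lower and the urokinase gene Plau higher, at 9.31 and 7.51 RPKM in JunKO against 39.0 and 41.2 in JunDKO. The call of Plau was lost without JunDKO replicate 2 and that of Mmp19 in 5 of 27 alternatives. In the matrix list of 10, Lox and Spp1 were called lower and F13a1 and Thbs1 called higher, with 5 positive differences in all. Rac2, Il1rn and Abcg1 were the calls of the NADPH oxidase, interleukin-1 and, beside Apoc2, lipid efflux lists, at -1.50, -1.36 and -1.51. The call of Il1rn was lost without JunDKO replicate 2. Csf2rb and Csf2rb2, close copies that encode cytokine receptor chains, differed by 1.28 and 1.33 between JunDKO and JunKO, and Csf2rb lost its call without JunKO replicate 2 or JunDKO replicate 1.

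Several lists held 0 calls by limma-trend and by limma-voom. These were 36 cytosolic ribosomal protein genes (median difference -0.07, with 0 at an unadjusted p under 0.05), 19 genes of cholesterol synthesis (0.12, with 3), 5 of MHC class II presentation (0.21, with 1), 4 clade B serpins (-0.67, with 2) and 3 dendritic cell markers (0.15, with 1). Among all 10414 models 2684 had an unadjusted p under 0.05. Of 24 lysosome genes 1 was called lower, Ctsk, and the median was 0.31. Osteoclast markers had 2 of 4 called lower, Ctsk and Mmp9. Of 12 chemoattractant receptor genes 2 were called lower, Fpr1 and Fpr2, and 2 called higher, Cx3cr1 and Cxcr4, with 9 positive differences and a median of 0.46. Without the RPKM minimum 5 were called higher. Cxcr4 was not called with equal library medians or without JunDKO replicate 1. A list without a call is not shown to be equal in the 2 knockouts.

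**Figure D5:**
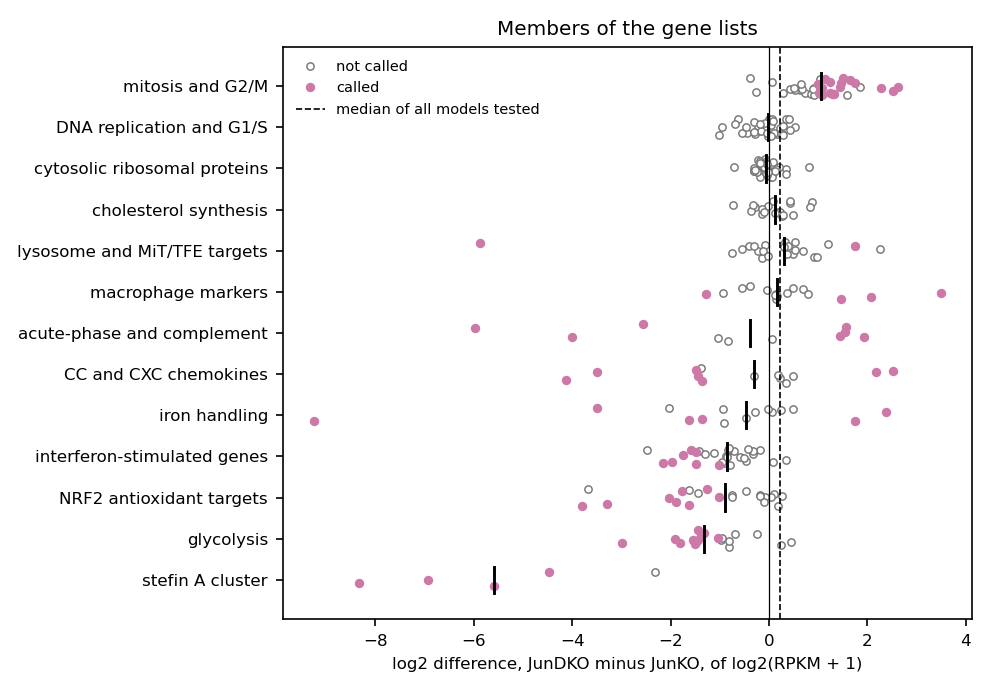
Log2 difference (JunDKO minus JunKO, of log2(RPKM + 1)) of each tested member of 13 gene lists, with called members filled, list medians as vertical bars and the median of all models dashed at 0.23. Mitotic genes lie to the right with a median of 1.05, and glycolysis, NRF2 and stefin genes lie to the left with medians of -1.32, -0.89 and -5.59.

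Promoters of the called genes were searched for the TRE on both strands and, separately, for the CRE, which reads alike on both strands and does not contain a TRE. A RefSeq promoter (GRCm38.p6, 250 bases before to 50 after the start) lay within 500 bases of the start of 7847 of the 10414 models. A TRE was present in 257 of these (3.28%), in 8 of 137 promoters of genes called higher (5.84%) and in 15 of 150 of genes called lower in JunDKO (10.0%). A CRE was present in 272 (3.47%), in 1 of 137 (0.730%) and in 1 of 150 (0.667%). The difference in these shares was not tested, and a match describes letters in this window and not a bound site. Among the genes with a TRE in the 250 bases before the start, that stretch is shown for the 6 that also met the rule by which genes were named, since they include genes of both directions, with the TRE in capitals and each sequence 5′ to 3′ along its gene.
Mmp12, chr9:7347124-7347373, plus strand: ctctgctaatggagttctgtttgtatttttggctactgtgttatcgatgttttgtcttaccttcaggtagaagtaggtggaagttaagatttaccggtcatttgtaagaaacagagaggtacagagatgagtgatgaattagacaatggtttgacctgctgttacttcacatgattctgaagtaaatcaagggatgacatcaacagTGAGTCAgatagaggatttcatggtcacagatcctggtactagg
Prdx1, chr4:116685349-116685598, plus strand: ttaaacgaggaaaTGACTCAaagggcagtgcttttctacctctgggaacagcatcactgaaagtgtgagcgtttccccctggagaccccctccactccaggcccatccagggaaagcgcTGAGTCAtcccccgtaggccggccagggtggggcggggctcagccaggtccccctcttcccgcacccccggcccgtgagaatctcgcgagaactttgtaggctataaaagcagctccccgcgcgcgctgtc
Procr, chr2:155750967-155751216, plus strand: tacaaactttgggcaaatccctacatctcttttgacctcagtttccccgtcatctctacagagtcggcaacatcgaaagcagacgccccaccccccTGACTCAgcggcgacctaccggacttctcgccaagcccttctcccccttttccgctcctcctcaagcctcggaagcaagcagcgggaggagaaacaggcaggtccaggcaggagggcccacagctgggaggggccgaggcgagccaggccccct
Rsad2, chr12:26456453-26456702, minus strand: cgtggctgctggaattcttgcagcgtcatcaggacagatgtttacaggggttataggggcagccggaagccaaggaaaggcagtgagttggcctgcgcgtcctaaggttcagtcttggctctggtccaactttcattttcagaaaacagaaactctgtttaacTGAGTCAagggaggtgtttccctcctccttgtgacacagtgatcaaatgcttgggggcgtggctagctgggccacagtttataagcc
Ctla2a, chr13:60936567-60936816, minus strand: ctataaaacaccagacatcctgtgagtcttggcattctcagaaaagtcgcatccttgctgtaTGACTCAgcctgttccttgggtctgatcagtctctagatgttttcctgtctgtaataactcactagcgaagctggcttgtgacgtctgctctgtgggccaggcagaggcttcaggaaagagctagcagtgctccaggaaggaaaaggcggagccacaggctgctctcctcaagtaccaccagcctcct
Cyth1, chr11:118212732-118212981, minus strand: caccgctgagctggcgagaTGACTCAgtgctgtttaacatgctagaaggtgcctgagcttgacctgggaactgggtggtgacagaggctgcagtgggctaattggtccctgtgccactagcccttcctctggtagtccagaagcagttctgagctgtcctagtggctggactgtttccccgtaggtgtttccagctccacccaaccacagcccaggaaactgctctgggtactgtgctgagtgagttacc

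The first TRE began 44 bases before the start in Mmp12, 237 in Prdx1, 154 in Procr, 87 in Rsad2, 188 in Ctla2a and 231 in Cyth1, and Prdx1 held 2. Hspa5, Cxcl10 and Ctla2b, mentioned above, also had a TRE before the start and are not shown. Mmp12, Prdx1, Procr and Rsad2 were lower in JunDKO than in JunKO and Ctla2a and Cyth1 higher. Of the lower genes, Mmp12, Prdx1 and Procr were also below Scramble in JunKO, while Rsad2 was near it. Cyth1, which encodes an activator of ARF GTPases, measured 9.64 and 7.33 RPKM in JunKO and 22.6 and 21.7 in JunDKO, and lost its call without JunDKO replicate 1 or replicate 2.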

How the data were processed

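PolyA RNA-seq libraries of iBMDMs were analysed from the table of RPKM deposited by the authors. Per the processing notes reads were aligned to mm10 with STAR, and the file header names HOMER counting over exons with condensed genes. Versions and a strand option were not given in the sources used here. The authors used edgeR on reads, which was not used here, since a count test was not designed for RPKM. A step of 1 read was recovered per library (100.0% of values up to 50 reads whole within 0.05 read).

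Values of log2(RPKM + 1) for 10414 models were fitted with limma-trend (limma 3.58.1, R 4.3.3) with a coefficient for each of 4 groups (8 libraries). P-values were two-sided and Benjamini-Hochberg adjusted over all models. Fold changes, taken from log2(RPKM + 1), understate the change of low genes. Calls required an adjusted p under 0.05, a 2-fold change and 16 RPKM as the mean of one group. In data simulated for JunDKO against JunKO over 10414 models, 178 of 200 genes changed 2.5-fold and 194 of 200 changed 4-fold were recovered, and 0 unchanged genes were called. That simulation gave every group the same dispersion (0.011) and shifted no group as a whole. Its changed genes were drawn from those with a mean of at least 16 RPKM. The real Atf3KO libraries spread more than the others, so these rates need not hold for the real fit. Alternatives changed the pseudocount, filters, scaling, GC and length trends, libraries, weights, test and depth (thinning to 1272105 exonic reads). All Scramble, JunKO and JunDKO titles carry 1 date, so no batch was separated. The 2 Atf3KO titles differ in date, so the spread of the fit includes that difference.

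The contrast and gene lists were chosen with earlier results of these data known. Named genes were the 12 called genes with the largest difference each way, up to 4 called members of each list, all AP-1 genes tested, and up to 4 genes per class and direction with the smallest adjusted p. Where a group had 0 reads a limit of 3 reads was used. Coordinates are 1-based, and GC content was available for 98.8% of models. Python 3.11.15 and matplotlib 3.10.9 were used. The 4 GRO-seq samples and the elicited macrophage libraries were not used here, and a few called genes are not reported here.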

Additional observations from a re-analysis of the deposited data

How the results depend on the processing

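Of the counts of called genes, 389 in all, 183 higher and 206 lower in JunDKO, the following settings moved them by over 1.5 times. Without the RPKM minimum they were 736, 362 and 374, and with a log2 fold change of at least 2 they were 107, 38 and 69. Equal library medians gave 110 higher and 310 lower of 420, of which 316 were among the 389. Leaving out 1 library at a time gave 220 to 409 called, 73 to 198 higher and 141 to 211 lower. The classes, recomputed under each alternative as a choice made after seeing the data, held 436 genes with JunDKO apart, 14 with JunKO apart, 63 on opposite sides, 109 on the same side and 114 others without the RPKM minimum, and 62 with JunDKO apart, 0 with JunKO apart, 23 on the same side and 0 others at the stricter fold. Without 1 library they held 138 to 250, 1 to 4, 29 to 43, 42 to 66 and 4 to 59. Atf4 reversed from 0.08 to -0.17 with equal medians, to -0.08 with the GC trend removed, with or without the replicate block, and over -0.08 to 0.24 without 1 library. Atf3 reversed from 0.15 to -0.10 with equal medians and to -0.00 with the GC trend removed, with or without the block. The cause was not tested, beyond the fewer libraries in fits that leave one out. Same-numbered libraries deviated together across genes (r = 0.248 for JunKO with JunDKO, 0.289 and 0.241 for Scramble with each), while Atf3KO libraries deviated the other way (-0.269, -0.29 and -0.172 with Scramble, JunKO and JunDKO). The labels tie a number to no shared culture or day and each comparison has only 2 pairs, so whether the numbers pair the samples was not settled and the block stayed an alternative. The replicate block gave 371 calls (168 higher, 203 lower), 437 without the Atf3KO libraries (219 and 218) and 419 with the GC trend removed (141 and 278). Where 1 library of a group was left out, the spread came from the other groups. Of the 2576 single-gene values under alternatives, 2495 kept direction and side of the threshold, 67 lost the call, 7 gained it and 7 reversed. The depth of 1553296 to 1929988 reads in 5 of the 6 JunDKO, JunKO and Scramble libraries limits genes near 1 RPKM.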
